A study of Mus musculus with 10 samples.

Results

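Markers of non-parenchymal liver cells were examined for XBP-1 occupancy: 35 genes that mark Kupffer cells (8 genes), endothelial cells (8), stellate cells (8), bile duct cells (5) and lymphoid cells (6), of 21887 protein-coding genes in the RefSeq annotation. The genes were taken by name as cell type markers, and the rule uses no measured value. A gene was counted as marked in a library where a peak summit lay inside its annotated span or within 5 kb of either end. All 35 genes had a span in the annotation.

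The chromatin came from liver of C57BL/6J mice and was immunoprecipitated with an antibody against XBP-1s, the spliced and active form, to map targets in liver metabolism. The 8 libraries were 2 from fasted wild-type mice (Fasted), 2 from fed wild-type mice (Fed), 2 from mice with a liver specific knockout of Ern1 (Ern1-LKO) and 2 from the wild-type controls of that knockout (WT), with 2 input DNA libraries as background. The labels do not give the length of the fast, the feeding state of the Ern1-LKO and WT mice, the driver of the Ern1 deletion, the liver cell types it reaches, or the age of any mouse. Nothing in the labels says which libraries came from separate animals, so a p-value here measures only the spread between these libraries, which may be technical. A peak list measures neither expression nor the share of each cell type, and in whole liver a site bound in few cells and a site bound weakly in many cells cannot be told apart.

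XBP-1 is a bZIP transcription factor of the unfolded protein response. The endoplasmic reticulum (ER) sensor encoded by Ern1 splices Xbp1 mRNA, and the protein made from the spliced form activates genes for protein folding, quality control and secretion. In liver, hepatocytes make most of the secreted plasma proteins, while the cells marked by these 35 genes line the sinusoids, clear particles from blood, store vitamin A, form the bile ducts or carry out immune functions.

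The lists differed widely in length, which limits how many genes can be marked. They held 53973 and 19237 peaks in Fasted, 82975 and 47357 in Fed, 698 and 30796 in Ern1-LKO and 6258 and 30327 in WT replicates 1 and 2, from 4.34M to 17.4M kept tags per library (M, 1e6). Replicate 1 of Ern1-LKO and replicate 1 of WT stood apart as the shortest lists, although their 11.996M and 14.1M kept tags were above those of their replicates (4.34M and 9.18M). Each result that rests on them is given below with and without them. For reference, 20 ER folding genes, the textbook targets of XBP-1, were marked in 20 of 20 cases in 7 libraries and in 19 in Ern1-LKO replicate 1. These counts hardly differed between Ern1-LKO and WT, so they cannot tell whether the signal depends on Ern1. The list was chosen with earlier results of these data known.

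The marker genes were marked at about the rate of all genes in the Fasted and Fed libraries and below it in the Ern1-LKO and WT libraries. In Fasted, 28 of the 35 had a peak in replicate 1, where 73.1% of all genes had one, and 16 in replicate 2 (43.6% of all genes). In Fed, 28 had a peak in replicate 1 (76.1% of all genes) and 26 in replicate 2 (71.2%). As shares of the 35, these were 80% and 45.7% in Fasted and 80% and 74.3% in Fed. In Ern1-LKO, none of the 35 had a peak in replicate 1 (3.58% of all genes) and 16 in replicate 2 (62.4%). In WT, 1 had a peak in replicate 1 (19.6% of all genes) and 19 in replicate 2 (65%). The marker shares in the longer lists of that experiment were 45.7% in Ern1-LKO and 54.3% in WT, both below the share of all genes. The median window was 26.8 kb for the markers and 27.2 kb for all genes.

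**Figure D1:**
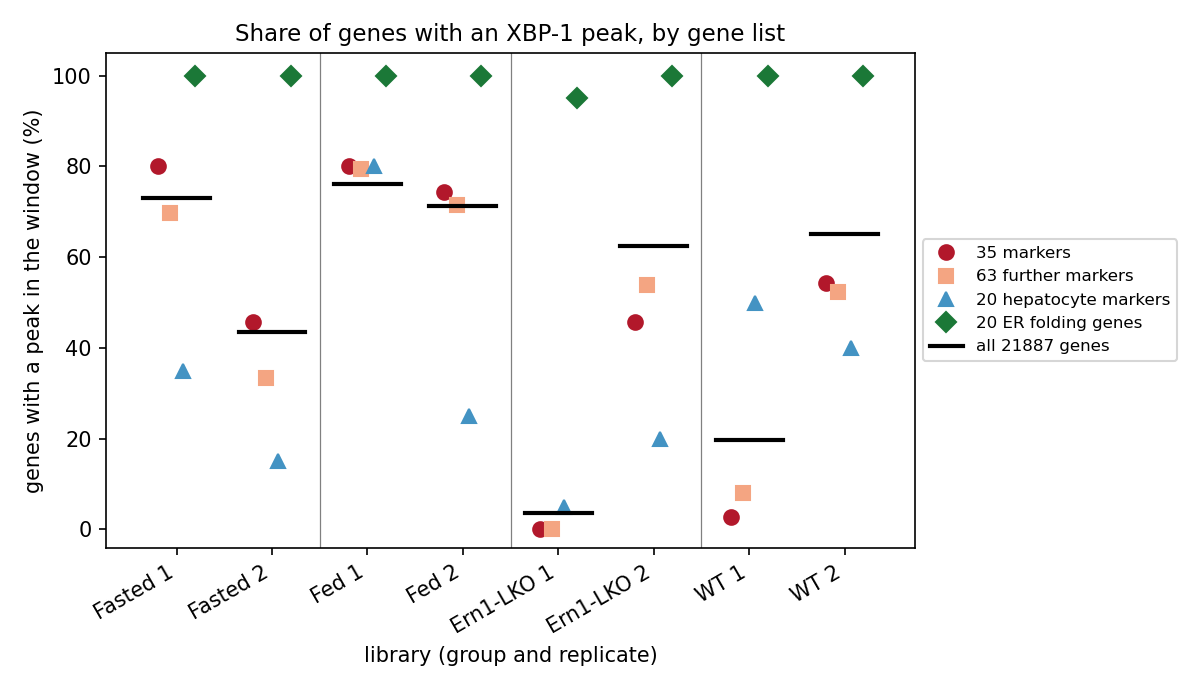
Share of genes with at least 1 peak summit in the window (vertical axis, percent) in each of the 8 libraries (horizontal axis), for the 35 markers, 63 further non-parenchymal markers, 20 hepatocyte markers, 20 ER folding genes and all 21887 genes (bars). The 35 markers sit close to the bar in Fasted and Fed, below it in Ern1-LKO and WT, and below the ER folding genes in every library.

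A second list of 63 markers of the same cell types had 44 and 21 marked genes in Fasted, 50 and 45 in Fed, 0 and 34 in Ern1-LKO and 5 and 33 in WT. Its shares were 69.8% and 33.3% in Fasted, 79.4% and 71.4% in Fed, 54.0% in Ern1-LKO replicate 2 and 52.4% in WT replicate 2. Like the 35 markers, it lay close to or above the share of all genes in both Fed libraries and below it in all 4 libraries of the knockout experiment. In Fasted it lay below where the 35 markers lay above. Some of these differences were small. In Fed replicate 2 its 71.4% stood against 71.2% of all genes, and in Ern1-LKO replicate 1 its 0% against 3.58%. Per 100 kb of window, the 35 markers carried 3.93 and 1.26 peaks in Fasted, where all genes carried 3.98 and 1.26, and 6.45 and 3.52 in Fed, where all genes carried 6.12 and 3.44. They carried 2.17 in Ern1-LKO replicate 2 and 2.37 in WT replicate 2, where all genes carried 2.39 and 2.55. Peak density in the marker windows was thus close to that of all genes in these 6 libraries. It was 0 in Ern1-LKO replicate 1 and 0.0504 in WT replicate 1, where all genes had 0.0661 and 0.468.

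Hepatocyte markers gave other counts. Of 20 hepatocyte markers, 7 and 3 were marked in Fasted, 16 and 5 in Fed, 1 and 4 in Ern1-LKO and 10 and 8 in WT. In WT replicate 1, a list that marked 1 of the 35 non-parenchymal markers, 10 of the 20 hepatocyte markers were marked. In Fed replicate 1 the hepatocyte windows held 79 peaks, or 12.1 per 100 kb, against 6.45 per 100 kb in the non-parenchymal windows. The hepatocyte shares were 35% and 15% in Fasted, 80% and 25% in Fed, 5% and 20% in Ern1-LKO and 50% and 40% in WT. In both Fasted libraries and in replicate 2 of Fed, Ern1-LKO and WT, they lay below those of the 35 markers and of all genes. Peak density was also lower in the hepatocyte windows there, with 1.53 against 3.93 per 100 kb in Fasted replicate 1.

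The 5 cell type classes were marked to different extents. Of the 8 Kupffer genes, 5 and 1 were marked in Fasted, 5 and 5 in Fed, 0 and 1 in Ern1-LKO and 0 and 2 in WT. Of the 8 endothelial genes, 7 and 4 were marked in Fasted, 8 and 6 in Fed, 0 and 3 in Ern1-LKO and 0 and 6 in WT. The 8 stellate genes gave 7 and 4 in Fasted, 6 and 7 in Fed, 0 and 5 in Ern1-LKO and 0 and 5 in WT. Among the 6 longer lists, the Kupffer genes had the lowest share of the 5 classes in all but Fed replicate 2, where their 62.5% stood above the 60% of the bile duct genes. Of the 5 bile duct genes, 4 and 2 were marked in Fasted, 4 and 3 in Fed, 0 and 4 in Ern1-LKO and 0 and 3 in WT. The 6 lymphoid genes gave 5 and 5 in Fasted, 5 and 5 in Fed, 0 and 3 in Ern1-LKO and 1 and 3 in WT. With 5 to 8 genes a class and windows of unequal length, from a median of 15.9 kb in the bile duct class to 54.6 kb in the endothelial class, these counts describe the classes and were not tested against one another. In the further markers, 10 and 3 of 14 Kupffer genes were marked in Fasted, 12 and 10 in Fed, 0 and 8 in Ern1-LKO and 1 and 7 in WT. Among the 6 longer lists, these Kupffer genes had the lowest share of the 5 further classes only in Fasted replicate 2, at 21.4%. In the other longer lists the further lymphoid genes were lowest. Their shares were 41.7% in Fasted replicate 1, 66.7% and 50% in Fed, and 33.3% in both Ern1-LKO replicate 2 and WT replicate 2.

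**Figure D2:**
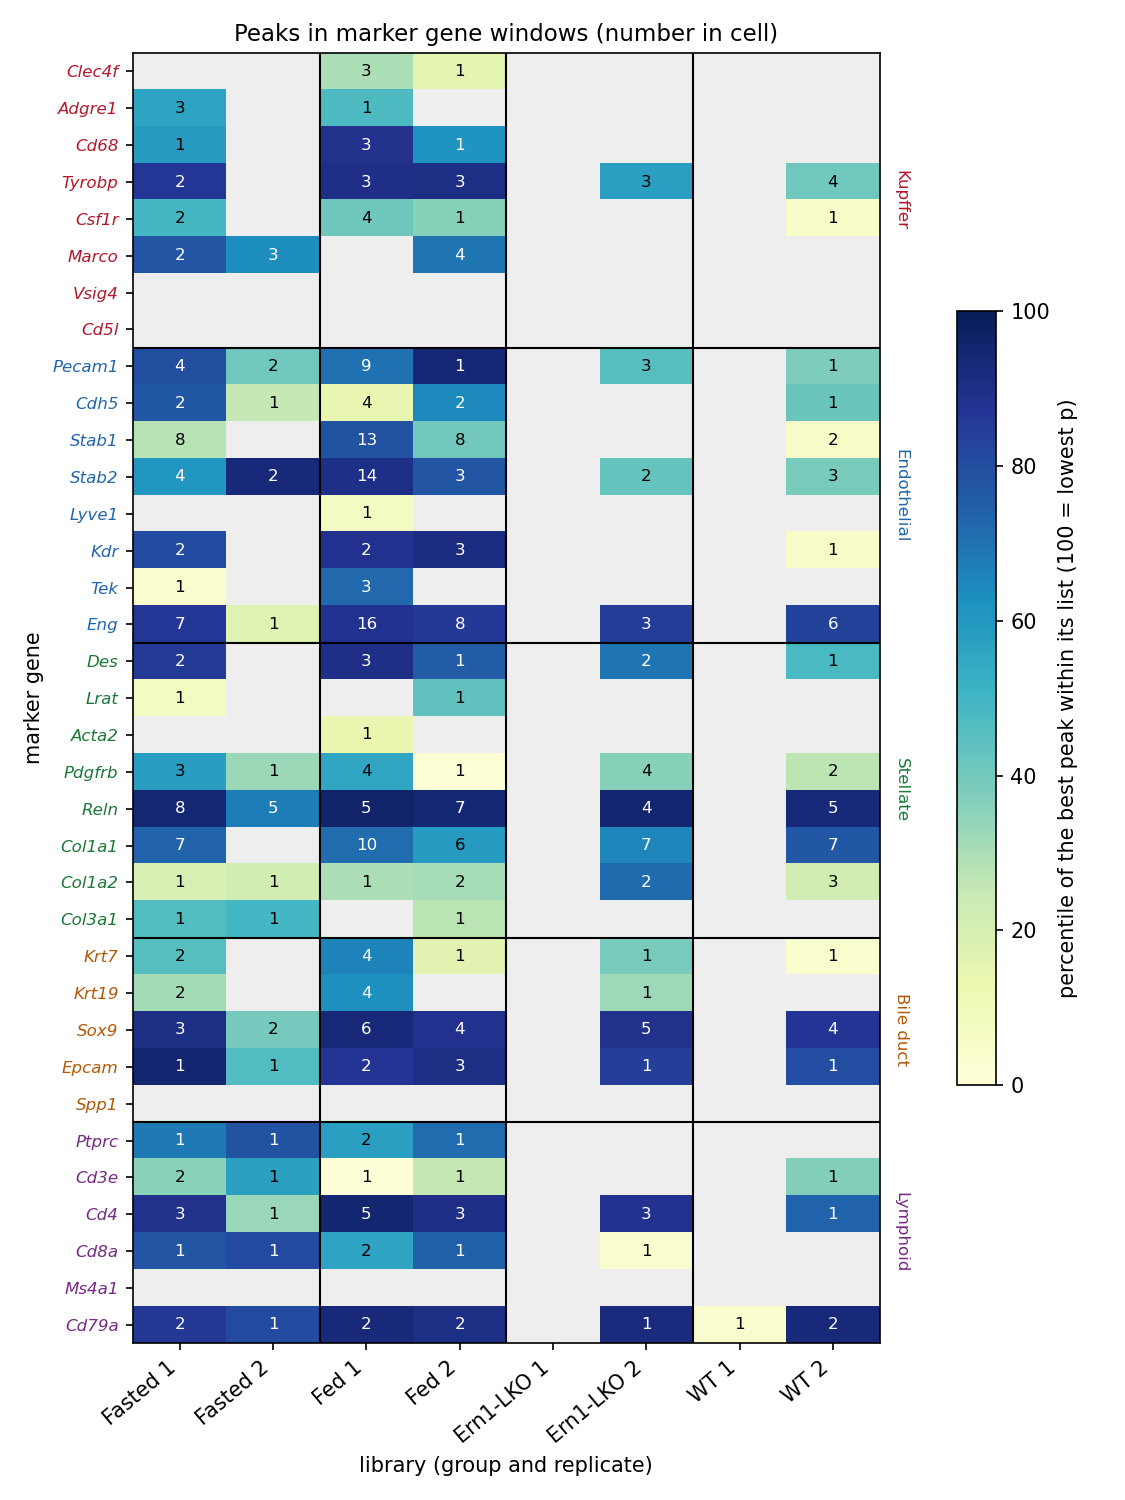
The 35 marker genes (rows, by cell type) in the 8 libraries (columns). The number in a cell counts the peaks in the gene's window, the colour gives the percentile by p of the gene's best peak within that library's list (100 for the lowest p), and grey cells have no peak. The columns of Ern1-LKO replicate 1 and WT replicate 1 hold 0 and 1 marked genes, and the rows of Vsig4, Cd5l, Spp1 and Ms4a1 are empty.

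The markers ranged from 0 to 7 libraries with a peak. None had a peak in all 8 libraries (2.64% of all genes), and 10 had one in 6 or more (43% of all genes). These were Cd79a with 7 libraries, and Pecam1, Stab2, Eng, Pdgfrb, Reln, Col1a2, Sox9, Epcam and Cd4 with 6. With both short lists left out, the same 10 genes were marked in all of the other 6 libraries, where 39.5% of all genes were, and without Ern1-LKO replicate 1 alone Cd79a was marked in all the others (13.9% of all genes). Tyrobp, Cdh5, Des, Col1a1, Krt7, Cd3e and Cd8a were marked in 5 libraries, and Csf1r, Stab1, Kdr and Ptprc in 4. Cd68, Marco, Col3a1 and Krt19 were marked in 3 libraries, Clec4f, Adgre1, Tek and Lrat in 2, and Lyve1 and Acta2 in 1. Vsig4, Cd5l, Spp1 and Ms4a1 had no peak in any library, as had 19.4% of all genes.

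Where the markers had peaks, their best peaks stood lower in the lists than those of marked genes at large. The best peak of a marked gene was placed by its percentile within its own list, counted by p, so that 100 is the lowest p. The median best percentile of the marked markers was 71.0 and 48.2 in Fasted, where that of all marked genes was 85.3 and 61.8, and 70.8 and 70.2 in Fed, where that of all marked genes was 90.4 and 83.1. It was 67.1 in Ern1-LKO replicate 2 and 40.5 in WT replicate 2, where all marked genes had 78.0 and 78.1. In each of the 7 libraries that marked any of the 35, the markers' median lay below that of all marked genes, including WT replicate 1 with its single marked gene (4.15 against 60.9). Other lists were low in part as well. The marked further non-parenchymal markers had medians of 68.7 and 54.2 in Fasted and 76.1 and 62.7 in Fed. They had 58.8 in Ern1-LKO replicate 2 and 58.7 in WT replicate 2, but 75.7 in WT replicate 1. Marked hepatocyte markers had 65.0 and 95.5 in Fasted, 82.1 and 88.1 in Fed, 10.5 and 56.3 in Ern1-LKO and 53.6 and 48.8 in WT. The best peaks of the ER folding genes had medians from 97.1 to 99.95 across the 8 libraries. Best peaks at percentile 90 or above belonged to 3 of 28 and 1 of 16 marked markers in Fasted, where 37.3% and 16.4% of all marked genes had one, and to 4 of 28 and 6 of 26 in Fed (51.4% and 33% of all marked genes). They belonged to 2 of the 16 marked markers in Ern1-LKO replicate 2 (25.6%) and 2 of the 19 in WT replicate 2 (25.5%), to none in Ern1-LKO replicate 1 (12.8%), where no marker was marked, and to none in WT replicate 1 (16.5%), where 1 was.

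The lists were also shortened to equal numbers of top peaks. Among the 698 top peaks of each list, the length of the shortest, none of the 35 markers was marked in any of the 8 libraries. All genes were marked there at 3.91% and 2.93% in Fasted, 3.99% and 3.95% in Fed, 3.58% and 3.83% in Ern1-LKO and 3.54% and 4.01% in WT. Shares of this size amount to 1 or 2 of 35 genes, so the count of 0 is close to the background. The ER folding genes marked among the same peaks numbered 20 and 15 in Fasted, 20 and 20 in Fed, 19 and 17 in Ern1-LKO and 20 and 20 in WT. Among the 19237 top peaks, the length of the shorter Fasted list, 15 and 16 markers were marked in Fasted (57.4% and 43.6% of all genes), and 12 and 16 in Fed (58.6% and 56.7%). Only in Fasted replicate 2 did the markers' share, 45.7%, exceed that of all genes in these shortened lists.

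Marker counts overlapped between Fasted and Fed livers. The libraries had 28 and 16 marked markers in Fasted and 28 and 26 in Fed, so the groups met at 28 and overlapped. The mean was 22.0 ± 8.49 in Fasted and 27.0 ± 1.41 in Fed (SD, n = 2 each), a difference of -5 genes (exact two-sided permutation test, p = 1, where 0.333 is the smallest p that 2 against 2 allows). After the share of all genes in each library was taken off, the markers stood 4.54 ± 3.38 points above it in Fasted and 3.496 ± 0.571 points above it in Fed (SD, n = 2 each), a difference of 1.05 points (exact permutation test, p = 1). Among the 19237 top peaks of each list, the markers stood at -6.18 ± 11.8 points relative to all genes in Fasted and -17.6 ± 9.46 points in Fed (SD, n = 2 each), a difference of 11.4 points (exact permutation test, p = 0.667). Limits on the peaks turned the sign of the count: at a fold enrichment of at least 5 and among the 19237 top peaks, the difference was 1.5 genes. Without Fasted replicate 2, whose list is the shortest of the 4, it was 1 gene, and without Fasted replicate 1 the difference relative to all genes was -1.34 points.

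With all 4 libraries, 1 marker was called in 1 of these groups alone. In Fasted, 16 markers were marked in both libraries (43.2% of all genes), and in Fed 23 (68.8%). None was marked in both Fasted libraries and neither Fed library (0.0731% of all genes). Clec4f was the 1 marker with a peak in both Fed libraries and neither Fasted library (1.2% of all genes). Without Fasted replicate 1 there were 9 such markers (26.5% of all genes), and without Fed replicate 2 there were 3 (5.68%). Without Fed replicate 2, 2 markers were marked in both Fasted libraries and not in Fed (0.868% of all genes). Clec4f encodes a C-type lectin receptor of Kupffer cells. Its window held 3 peaks in Fed replicate 1, with fold enrichments over the local background of 4.14, 3.03 and 2.88, and 1 peak in Fed replicate 2 with a fold of 4.86. Here and below, folds are the authors' own values and are not a measure of change between libraries. None of the 4 lay at the same site as another. The Fed replicate 2 summit was 12751 bases downstream of the start, beyond the gene's end. In the order of the folds above, the Fed replicate 1 summits were at 6888, 9140 and -174 bases from the start. At a minimum fold of 5, or at a minimum −log10 q of 5, Clec4f had no peak in any library. One Cd3e site was shared by both Fasted libraries and no other, and it is described with the lymphoid genes.

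Marker counts of Ern1-LKO and WT livers overlapped as well. The counts were 0 and 16 in Ern1-LKO and 1 and 19 in WT, with means of 8 ± 11.3 and 10 ± 12.7 (SD, n = 2 each), a difference of -2 genes (exact two-sided permutation test, p = 0.667). Relative to all genes, the markers stood at -10.2 ± 9.29 points in Ern1-LKO and -13.7 ± 4.26 points in WT, a difference of 3.60 points (exact permutation test, p = 0.667, n = 2 each). Both replicate 1 lists decide these values. With both left out, 16 markers were marked in Ern1-LKO and 19 in WT, a difference of -3 genes or -5.99 points, with 1 library a group and no test. Without Ern1-LKO replicate 1 alone the difference was 6 genes or -2.97 points, and without WT replicate 2 alone 7 genes.

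No marker was marked in both Ern1-LKO libraries (3.54% of all genes) and 1, Cd79a, in both WT libraries (18.3%). None was marked in both Ern1-LKO libraries and neither WT library (0% of all genes), and none in both WT libraries and neither Ern1-LKO library (0.896%). The count of markers found in Ern1-LKO alone was 2 without Ern1-LKO replicate 1 (3.36% of all genes). The count found in WT alone was 5 when WT replicate 1 was left out (6.14%) and 1 when Ern1-LKO replicate 2 was (15.5%). Between the longer lists, Krt19 and Cd8a were marked in Ern1-LKO replicate 2 and not in WT replicate 2, and Csf1r, Cdh5, Stab1, Kdr and Cd3e in WT replicate 2 and not in Ern1-LKO replicate 2. These 7 genes were in the lower part of the list that held them: the percentiles of the best peaks were 32.4 for Krt19 and 3.37 for Cd8a in Ern1-LKO replicate 2, and 5.41 for Csf1r, 41.7 for Cdh5, 5.52 for Stab1, 5.80 for Kdr and 36.7 for Cd3e in WT replicate 2.

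The 392 peaks in marker windows formed 187 sites when overlapping peaks of different libraries were joined. Of the 187 sites, 104 (55.6%) were found in 1 library, as were 55.5% of 86509 regions in the windows of all genes. Fed replicate 1, the longest list, supplied 72 of the 104, Fasted replicate 1 14, Fed replicate 2 12, and Ern1-LKO replicate 2 and WT replicate 2 3 each. Sites found in 5 or more libraries numbered 18 (9.63%), against 17.3% of the regions of all genes. Replicates shared marker sites about as often as they shared peaks in general in Fasted: 92% of the 25 marker peaks of replicate 2 overlapped a peak of replicate 1, against 88.2% of all its peaks. In Fed, 52.9% of the 70 marker peaks of replicate 2 overlapped a peak of replicate 1, against 60.6% of all its peaks.

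Some peaks in these windows sat at other genes. Of the 392 peaks, 71 (18.1%) had their summit inside another protein-coding gene or within 1 kb of its end. Of the 18 sites found in 5 or more libraries, 3 had their best peak at another gene in every library that held them, in the windows of Cd79a, Cd4 and Tyrobp, and the other 15 had it there in no library. A peak list cannot say which gene a site belongs to. Without such peaks, the marked markers numbered 25 and 13 in Fasted (62.5% and 35.7% of all genes), 27 and 21 in Fed (67.5% and 60%), 0 and 13 in Ern1-LKO (2.45% and 51%) and 0 and 14 in WT (14.5% and 52.8%). As shares of the 35 these were 71.4% and 37.1% in Fasted, 77.1% and 60% in Fed, 37.1% in Ern1-LKO replicate 2 and 40% in WT replicate 2.

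Among the Kupffer genes, Tyrobp had the most recurrent site, and Marco had sites in Fasted and in 1 Fed library. Tyrobp encodes an adaptor of activating immune receptors on myeloid cells. Its best peaks had fold enrichments of 12.9 in Fasted replicate 1, 6.78 and 11.9 in Fed, 7.35 in Ern1-LKO replicate 2 and 6.63 in WT replicate 2, with none in the other 3 libraries. Of the 15 peaks in its window, 14 lay at a neighbour, 5 of which also lay within 1 kb of an end of Tyrobp. Its site of 5 libraries (chr7:30421554-30422557) lay at Nfkbid. Counting no peaks at a neighbour, Tyrobp was marked in 1 library. Marco encodes a scavenger receptor that binds bacteria, and its peaks lay at no other gene. The site at chr1:120482727-120483100, 22.1 kb inside the gene, had fold enrichments of 11.2 and 8.96 in Fasted and 8.59 in Fed replicate 2, at percentiles 77.4, 63.1 and 69.1. Fed replicate 1, with the most peaks of all lists, had none in the Marco window, nor had any Ern1-LKO or WT library.

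The other Kupffer genes were marked in 0 to 4 libraries. Cd68, a lysosomal glycoprotein of macrophages, was marked in 3 libraries, with 3 of its 5 peaks at Mpdu1. Csf1r, the receptor for the growth factor CSF1 that macrophages need, was marked in Fasted replicate 1, in both Fed libraries and in WT replicate 2, with 5 of its 8 peaks at Hmgxb3, 4 of which also lay within 1 kb of an end of Csf1r. Adgre1, which encodes the F4/80 antigen of mouse macrophages, had 3 peaks in Fasted replicate 1 and 1 in Fed replicate 1. Vsig4, a complement receptor, and Cd5l, a secreted protein of macrophages, had no peak although they span 46.2 and 13.2 kb.

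Endothelial genes carried most of their peaks inside the gene. Stab2, a scavenger receptor of liver sinusoidal endothelium, had best folds of 8.42 and 14.3 in Fasted, 6.88 and 10.04 in Fed, 6.96 in Ern1-LKO replicate 2 and 6.66 in WT replicate 2. In Fasted replicate 2 that peak stood at percentile 92.8, the 1 marker above percentile 90 of that list. The site, chr10:86900984-86901341, lay 106778 bases downstream of the start, and it was present in 5 libraries with fold enrichments of 8.42 and 14.3 in Fasted, 3.80 and 10.04 in Fed and 6.66 in WT replicate 2. Ern1-LKO replicate 2 had no peak there. Stab2 had 2 further gene-body sites of 5 libraries each, 98967 and 147680 bases downstream of the start, both of which Ern1-LKO replicate 2 held. No library had a Stab2 peak within 1 kb of the start in the promoter table.

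Pecam1, an adhesion molecule of endothelial junctions, had a gene-body site in 5 libraries (chr11:106697646-106698029) with folds of 11.5 and 7.78 in Fasted, 4.12 and 14.6 in Fed and 6.15 in Ern1-LKO replicate 2. Its percentiles were 77.2 and 40.4 in Fasted, 28.3 and 93.8 in Fed and 32.4 in Ern1-LKO replicate 2, so the same site ranked both high and low within Fed. WT replicate 2 had its 1 Pecam1 peak elsewhere in the gene. Eng, a co-receptor for TGF-beta family ligands, was marked in 6 libraries. Its start carried a site in 5, with folds of 10.4 in Fasted replicate 1, 5.26 and 3.39 in Fed, 10.2 in Ern1-LKO replicate 2 and 5.59 in WT replicate 2. Its other main site, chr2:32681180-32682136, was in 6 libraries, inside Eng, with folds of 13.6 and 5.65 in Fasted, 6.72 and 10.97 in Fed, 13.7 in Ern1-LKO replicate 2 and 10.3 in WT replicate 2. The best peak of the Eng window in WT replicate 2, with a fold of 12.1, lay at Fpgs, as did 12 of the 41 peaks in the window. Of these 12, 5 also lay within 1 kb of an end of Eng.

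Kdr, the main VEGF receptor of endothelium, had a start site in 4 libraries, with folds of 10.9 in Fasted replicate 1, 6.88 and 12.9 in Fed and 3.69 in WT replicate 2. Cdh5, the cadherin of endothelial junctions, was marked in both Fasted libraries, both Fed libraries and WT replicate 2. Stab1, a scavenger receptor related to Stab2, had 22 sites, the most of the 35 genes, and none was in more than 2 libraries. Tek, the angiopoietin receptor, was marked in Fasted replicate 1 and Fed replicate 1. Lyve1, a hyaluronan receptor of sinusoidal and lymphatic endothelium, had 1 peak, in Fed replicate 1, at percentile 7.35.

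Among the stellate genes, Reln was marked in 6 libraries, and its best peaks had the highest mean percentile of the 35 markers, with libraries without a peak taken as 0. Reln encodes reelin, a secreted glycoprotein first known from brain development. It spans 460 kb, the longest of the markers. Its best peak lay upstream of the start in 5 libraries, while in Fasted replicate 2 it lay 187808 bases downstream of the start, with a fold of 9.37 at percentile 67.6. The upstream site, chr5:22344807-22345545, had folds of 16.2 and 7.54 in Fasted, 8.29 and 12.7 in Fed, 18.8 in Ern1-LKO replicate 2 and 15.2 in WT replicate 2. It stood at percentiles 94.3 and 56.8 in Fasted, 95.7 and 94.5 in Fed, 95.3 in Ern1-LKO replicate 2 and 92.9 in WT replicate 2, above percentile 90 in all lists that held it but Fasted replicate 2. The downstream site, chr5:22343983-22344741, was in the same 6 libraries, with folds of 12.7 and 5.88 in Fasted, 5.32 and 10.1 in Fed, 9.94 in Ern1-LKO replicate 2 and 7.84 in WT replicate 2. The median summits lay at -379 and at 190.5 bases from the start, where a minus sign means upstream.

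The starts of the markers ranged widely in CpG content. The 4 promoter sequences below are from RefSeq, build GRCm38.p6, written 5′ to 3′ on the gene's strand with each CpG in capitals, and show 2 starts with peaks in 5 or 6 libraries, Reln and Krt7, and 2 genes with no peak in any library.
Reln, 250 bases before the start, chr5:22344706-22344955, minus strand: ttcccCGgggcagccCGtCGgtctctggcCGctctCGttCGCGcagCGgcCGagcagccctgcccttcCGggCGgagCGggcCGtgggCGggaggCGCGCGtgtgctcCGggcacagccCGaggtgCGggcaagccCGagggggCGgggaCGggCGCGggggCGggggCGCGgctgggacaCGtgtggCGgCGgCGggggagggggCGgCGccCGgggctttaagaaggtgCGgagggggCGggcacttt
Krt7, 250 bases before the start, chr15:101412153-101412402, plus strand: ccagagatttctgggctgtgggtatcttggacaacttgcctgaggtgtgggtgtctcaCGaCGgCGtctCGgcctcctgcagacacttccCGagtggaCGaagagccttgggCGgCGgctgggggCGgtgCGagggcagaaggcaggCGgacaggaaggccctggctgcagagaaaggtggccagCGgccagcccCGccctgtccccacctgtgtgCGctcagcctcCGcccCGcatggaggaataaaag
Cd5l, 250 bases before the start, chr3:87357631-87357880, plus strand: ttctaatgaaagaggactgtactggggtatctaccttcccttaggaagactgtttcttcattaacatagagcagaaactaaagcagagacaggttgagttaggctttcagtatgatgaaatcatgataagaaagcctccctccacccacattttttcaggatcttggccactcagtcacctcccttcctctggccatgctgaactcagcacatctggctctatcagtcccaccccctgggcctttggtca
Vsig4, 250 bases before the start, chrX:96293439-96293688, minus strand: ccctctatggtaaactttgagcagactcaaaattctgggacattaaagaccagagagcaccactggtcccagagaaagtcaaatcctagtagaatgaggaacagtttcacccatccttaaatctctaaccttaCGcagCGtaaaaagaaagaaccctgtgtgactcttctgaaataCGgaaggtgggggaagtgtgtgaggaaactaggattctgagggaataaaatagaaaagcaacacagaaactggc
The Reln stretch holds 37 CpG and 80% G+C, the Krt7 stretch 16 CpG and 66%, the Cd5l stretch 0 CpG and 46.8%, and the Vsig4 stretch 3 CpG and 43.2%. Other markers paired CpG and start peaks differently: Eng, Des and Col1a2 had start peaks in 5 libraries at low CpG ratios (observed over expected CpG) of 0.202, 0.344 and 0.470, and Lrat had them in 2 at a ratio of 0.777.

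The collagen genes, whose products stellate cells deposit in fibrosis, differed in where they were marked. Col1a2 was marked in 6 libraries, in 5 of them at its start (chr6:4505139-4505702) with folds of 5.26 in Fasted replicate 1, 4.14 and 5.81 in Fed, 10.5 in Ern1-LKO replicate 2 and 5.81 in WT replicate 2. Those peaks stood at percentile 71.7 in Ern1-LKO replicate 2 and between 19.6 and 30.5 in the other 4 libraries. Fasted replicate 2 had a Col1a2 peak at another site, at percentile 21.7. Col1a1 was marked in 5 libraries, all but Fasted replicate 2 and the short lists, with 37 peaks in 15 sites along its 16.8 kb. Its most recurrent site, in 5 libraries, lay at an end of the span whose strand the tables used here do not list. Col3a1 had 1 site, 2.73 kb after its start, with folds of 6.84 and 8.36 in Fasted and 5.56 in Fed replicate 2.

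Des, the intermediate filament desmin used to stain stellate cells in rodents, had a start site in 5 libraries with folds of 12.5 in Fasted replicate 1, 7.16 and 9.20 in Fed, 9.83 in Ern1-LKO replicate 2 and 7.10 in WT replicate 2. Pdgfrb, a receptor for platelet-derived growth factor, was marked in 6 libraries with best folds of 7.99 and 6.99 in Fasted, 4.63 and 3.80 in Fed, 6.34 in Ern1-LKO replicate 2 and 5.85 in WT replicate 2. Of its 15 peaks, 9 lay at Gm52351, 5 of which also lay within 1 kb of an end of Pdgfrb, and its site of most libraries was in 4. At a minimum fold of 5 it was the 1 marker left in both Fasted and in neither Fed library (0.324% of all genes). Lrat, which makes retinyl esters for vitamin A storage, was marked at its start in Fasted replicate 1 and Fed replicate 2. Acta2, the smooth muscle actin of activated stellate cells, had 1 peak, in Fed replicate 1, at percentile 12.96.

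Of the bile duct genes, Sox9 and Epcam were marked in 6 libraries and stood high in most. Epcam encodes an epithelial adhesion molecule. Its site, chr17:87636650-87637352, about 917 bases downstream of the start, had folds of 19.6 and 7.72 in Fasted, 6.32 and 11.9 in Fed, 12.7 in Ern1-LKO replicate 2 and 10.7 in WT replicate 2. The 19.6 of Fasted replicate 1 stood at percentile 95.0, the highest of any marker in that list, while that of Fasted replicate 2 stood at 46.8. Sox9, a transcription factor of duct and progenitor cells, had 2 sites of 6 libraries, chr11:112781881-112783198 and chr11:112784423-112785531. The peaks of its first site had folds of 10.96 and 4.78 in Fasted, 5.28 and 7.52 in Fed, 12.3 in Ern1-LKO replicate 2 and 12.2 in WT replicate 2.

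Krt7, a keratin of duct epithelium, had a start site in 5 libraries with folds of 6.84 in Fasted replicate 1, 5.18 and 5.05 in Fed, 6.57 in Ern1-LKO replicate 2 and 4.12 in WT replicate 2. They stood at percentiles 45.7 in Fasted replicate 1, 65.9 and 16.1 in Fed, 38.7 in Ern1-LKO replicate 2 and 3.78 in WT replicate 2. Krt19, a second duct keratin, was marked in Fasted replicate 1, Fed replicate 1 and Ern1-LKO replicate 2. Spp1, which encodes the secreted protein osteopontin, had no peak in its span of 5.94 kb or the flanks.

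The most recurrent sites in the lymphoid windows lay at other genes. Cd79a, a subunit of the B cell receptor, was the 1 marker with a peak in 7 libraries, and the 1 marker marked in WT replicate 1. All 11 peaks in its window lay at Arhgef1, more than 1 kb beyond the end of Cd79a. The site of 7 libraries, chr7:24902591-24903415, had folds of 11.4 and 9.18 in Fasted, 6.83 and 10.5 in Fed, 15.7 in Ern1-LKO replicate 2 and 3.63 and 14.1 in WT. Cd4, the co-receptor of helper T cells, was marked in 6 libraries by a site at Gpr162 (chr6:124863564-124864290) that also lay within 1 kb of an end of Cd4, with folds of 14.4 and 6.64 in Fasted, 8.80 and 11.7 in Fed, 14.1 in Ern1-LKO replicate 2 and 9.37 in WT replicate 2. Without peaks at other genes, Cd79a was marked in no library and Cd4 in 2.

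The peaks of Cd8a, Cd3e and Ptprc lay at no other gene. Cd8a, the co-receptor of cytotoxic T cells, had a site 3335.5 bases (median) after its start (chr6:71376583-71376950) with folds of 11.6 and 11.8 in Fasted and 4.83 and 9.51 in Fed, and no peak there in the 4 libraries of the knockout experiment. Ptprc, the CD45 phosphatase of all leukocytes, had a site 48.4 kb inside the gene with folds of 9.47 and 11.3 in Fasted and 8.98 in Fed replicate 2. Cd3e, a subunit of the T cell receptor complex, had a site 778 bases after its start with folds of 6.07 and 8.96 in Fasted, and none in Fed, Ern1-LKO or WT. Its other site, near the far end of the gene, was in 4 libraries, with folds of 5.21 in Fasted replicate 1, 2.70 and 5.07 in Fed and 6.46 in WT replicate 2. Ms4a1, the CD20 antigen of B cells, had no peak in its span of 16.5 kb or the flanks.

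Some sites were in both Fasted libraries and Fed replicate 2 and not in Fed replicate 1, although that list is the longest. There were 5 such sites, 2 in Marco and 1 each in Col3a1, Ptprc and Reln, or 2.67% of the 187, against 1.56% of the regions of all genes. A Cdh5 site and 2 further Reln sites were in the same libraries and in WT replicate 2, so that 3 sites (1.60%) were of this kind, against 0.379% of the regions of all genes. These counts were made after the pattern was seen and were not tested. The 72 sites of Fed replicate 1 alone, on the other hand, made up 38.5% of the marker sites, close to the 37.2% of the regions of all genes.

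**Figure D3:**
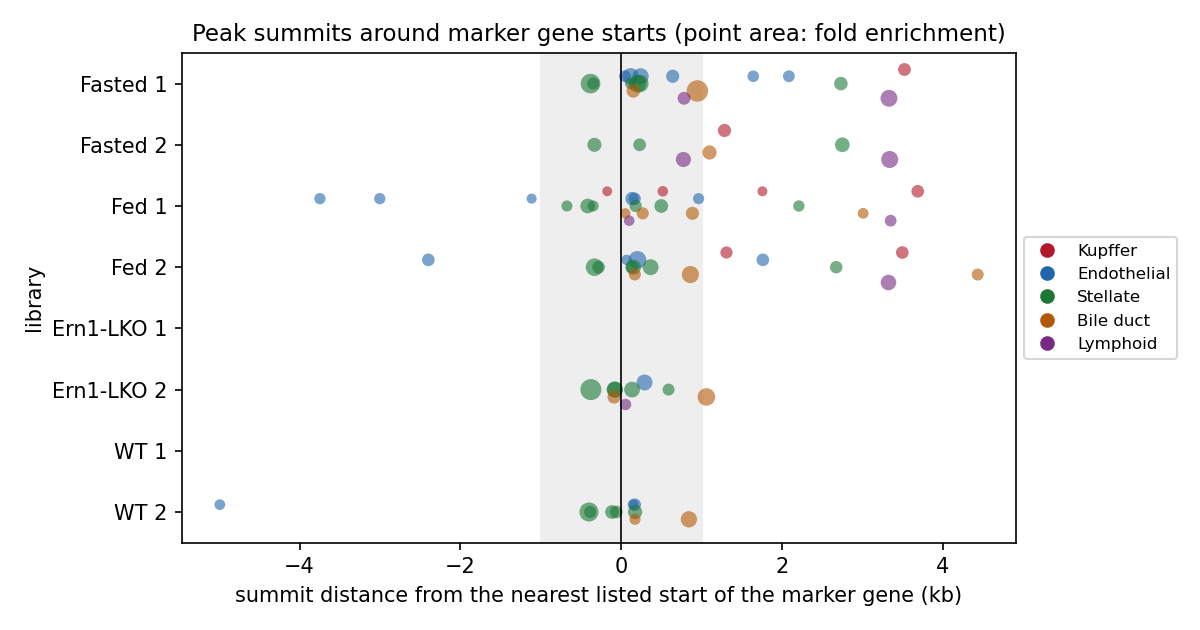
Summits around the starts of the markers in the promoter table (horizontal axis, kb from the nearest listed start, downstream positive), 1 line for each library, with colour for the cell type and point area for the fold enrichment. Start-site summits (shaded, within 1 kb) are mostly of stellate, endothelial and bile duct genes, and Ern1-LKO replicate 1 and WT replicate 1 have none.

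Starts could be examined for 23 of the 35 markers, with 25 promoters in the RefSeq table (GRCm38.p6), which gives 250 bases before and 50 after each start. Adgre1, Tyrobp, Csf1r, Pecam1, Cdh5, Lyve1, Pdgfrb, Col1a1, Krt19, Sox9, Cd4 and Ms4a1 were not among them. A summit lay within 1 kb of the start for 10 and 2 of the 25 marker promoters in Fasted, 10 and 8 in Fed, 0 and 6 in Ern1-LKO and 0 and 7 in WT. As shares, these were 40% and 8% in Fasted (all promoters 57.6% and 26.0%), 40% and 32% in Fed (62.8% and 55.3%), 24% in Ern1-LKO replicate 2 (47.1%) and 28% in WT replicate 2 (51.8%). At starts, then, the share of these marker promoters lay below that of all promoters in all 8 libraries. In whole windows, the share of all 35 markers was about that of all genes in Fasted and Fed and below it in Ern1-LKO and WT. The starts cover only 23 of the 35 markers, so the comparisons at starts and in windows rest on unlike sets.

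CpG content was lower in the marker promoters than in promoters at large. A CpG ratio, the observed number of CpG over that expected from the C and G content, of at least 0.6 was taken as CpG rich. Only 4 of the 25 marker promoters (16%) were CpG rich, those of Reln, Krt7, Kdr and Lrat, against 47.7% of 21263 promoters. The median ratio was 0.270 for the markers and 0.567 for all promoters. Among CpG-poor promoters, the 21 of the markers had a start peak in 28.6% and 4.76% in Fasted (all CpG-poor promoters 27.5% and 6.15%), 33.3% and 19.0% in Fed (33.6% and 23.9%), 0% and 19.0% in Ern1-LKO (0.440% and 18.1%) and 0% and 19.0% in WT (2.97% and 20.5%). Within this class the marker shares thus lay within 5 points of all promoters in all 8 libraries. The 4 CpG-rich marker promoters had a start peak in 4 and 1 cases in Fasted, 3 and 4 in Fed, 0 and 2 in Ern1-LKO and 0 and 3 in WT, where all CpG-rich promoters had 90.6% and 47.9% in Fasted, 94.8% and 89.7% in Fed, 5.42% and 79.0% in Ern1-LKO and 21.2% and 86.1% in WT. The split by CpG was chosen after seeing the data.

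**Figure D4:**
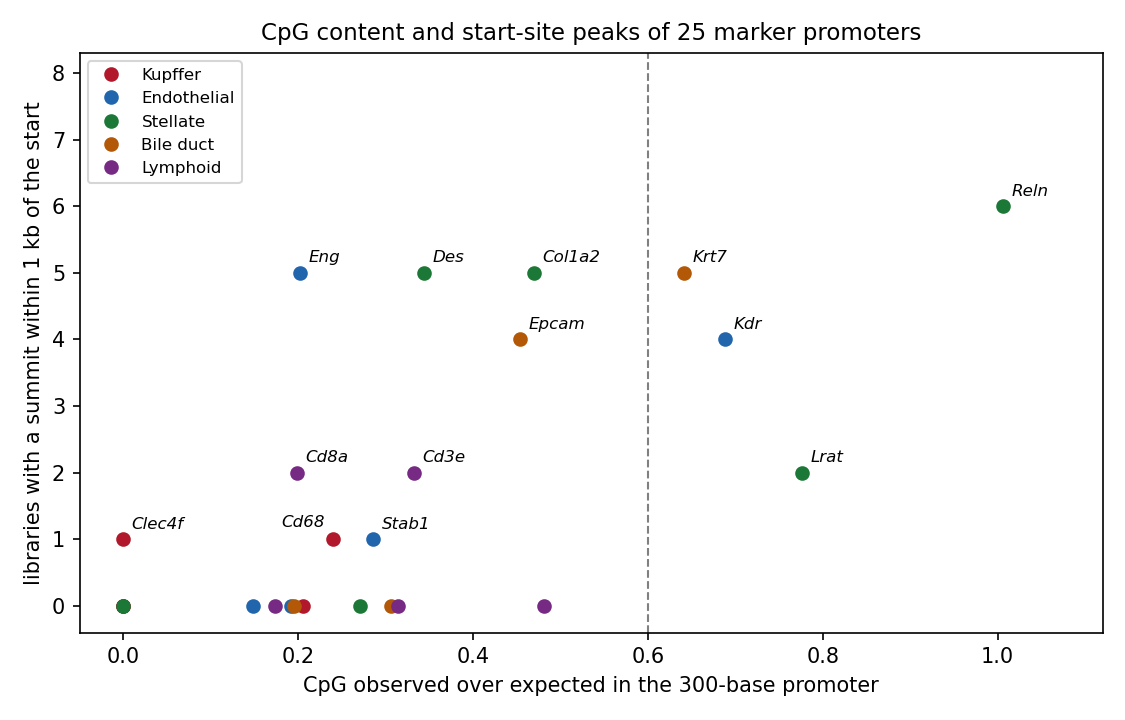
CpG ratio of each of the 25 marker promoters (horizontal axis) against the number of libraries, of 8, with a summit within 1 kb of the start (vertical axis), coloured by cell type; the dashed line marks a ratio of 0.6 and overlapping points at 0 libraries hide one another. Reln has the highest ratio and 6 libraries, and Eng, Des and Col1a2 have 5 libraries below the line.

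The marker promoters were searched for the letters of known XBP-1 elements. TGACGTGG, the core of the unfolded protein response element, was searched on both strands and found in 1 of the 25 (4%), that of Cd3e, against 0.705% of all promoters. CCACGT, whose reverse complement lies inside TGACGTGG, was in 2 (8%), Cd3e and Col1a2, against 9.06% of all promoters and 28.6% of the 21 promoters of ER folding genes. CCACG, which lies inside CCACGT, was in 6 (24%), those of Cd3e, Cd79a, Col1a2, Kdr, Lrat and Reln, against 37.4% of all promoters and 81.0% of the ER folding promoters. The ER stress response element (ERSE), a CCAAT box and CCACG at a fixed spacing, was in none of the marker promoters, against 0.141% of all promoters and 38.1% of the ER folding promoters. The related ERSE-II was in none of the marker promoters, against 0.0517% of all promoters and 4.76% of the ER folding promoters.

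The Col1a2 and Cd3e promoters are shown because they hold the longer of these motifs, again from RefSeq, GRCm38.p6, 5′ to 3′ on the gene's strand, with CCACGT in Col1a2 and TGACGTGG in Cd3e in capitals.
Col1a2, 250 bases before the start, chr6:4505368-4505617, plus strand: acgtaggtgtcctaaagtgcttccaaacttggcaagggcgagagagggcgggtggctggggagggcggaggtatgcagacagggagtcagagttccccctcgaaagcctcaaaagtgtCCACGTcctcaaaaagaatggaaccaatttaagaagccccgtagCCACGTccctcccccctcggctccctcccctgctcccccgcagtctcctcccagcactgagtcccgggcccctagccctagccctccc
Cd3e, 250 bases before the start, chr9:45009612-45009861, minus strand: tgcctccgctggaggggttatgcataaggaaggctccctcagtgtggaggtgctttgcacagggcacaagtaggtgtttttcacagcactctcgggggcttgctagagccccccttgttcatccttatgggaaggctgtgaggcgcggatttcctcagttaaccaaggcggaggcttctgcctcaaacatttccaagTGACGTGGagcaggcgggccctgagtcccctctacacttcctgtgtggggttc
In Col1a2, CCACGT stands 132 and 88 bases before the start, and the start site of 5 libraries had its median summit at -315 bases. The copy at 132 bases lay inside a peak in Fasted replicate 1, Fed replicate 2 and Ern1-LKO replicate 2, and the copy at 88 bases in Fed replicate 2, Ern1-LKO replicate 2 and WT replicate 2. The Fed replicate 1 peak held neither. In Cd3e, TGACGTGG stands 53 bases before the start, and the summits of the Cd3e site of both Fasted libraries lay about 778 bases after it. A match of letters is a description of the sequence and does not show a bound site.

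The authors' pooled lists, 1 for each group, marked 26 of the 35 markers in Fasted, 29 in Fed, 12 in Ern1-LKO and 8 in WT, where all genes were marked at 69.0%, 77.3%, 46.4% and 48.6%. No marker was marked in a pooled list without being marked in a library of its group. In WT, 11 markers marked in a library of the group were missing from the pooled list, as were 4 in Ern1-LKO, 2 in Fasted and 2 in Fed. Such losses were not counted over all genes, whose share was 65% in WT replicate 2 and 48.6% in the pooled WT list. These counts therefore do not show a trait of the markers.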

How the data were processed

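XBP-1 occupancy was measured by ChIP-seq. There were 12 peak lists deposited by the authors, of 8 single libraries and 4 pooled groups. Per the submitters' processing notes, the build was mm10 and the tools were MACS2 2.2.1, Bowtie2 2.2.5, FastQC 0.11.3 and bcl2fastq. The file headers name MACS 2.1.1.20160309, narrow peaks, 1 tag kept per position and a q cutoff of 0.05. Fasted and Fed lists were called against an input of 39.7M tags (M, 1e6), and Ern1-LKO and WT lists against another of 16.5M, per the file headers, so groups were compared only within each pair.

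Each deposited list gives a pileup signal (not used here), a fold enrichment over local background, and −log10 p and −log10 q. These are the authors' values and served to rank, describe or filter peaks within a list. Tag depth limits which peaks can be called.

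Summits were matched to RefSeq spans of GRCm38.p6 (mm10) with Python 3.11.15, pandas 2.3.3 and numpy 2.4.6. Peaks overlapping by at least 1 bp formed a site. Counts per library were compared by exact two-sided permutation tests, also written in Python with numpy. The counting was tested on simulated data. The 35 genes, the other lists and the tests were chosen with earlier results of these data known. All 35 genes are accounted for. Values in every library were given for genes marked in 6 or more libraries, in no library, or in both libraries of 1 group while absent from the compared group, and for the 2 genes of each class with the highest mean percentile; other genes with such values were named after their values were seen. Alternatives were other windows, stricter limits on −log10 q (5) and fold (5), equal numbers of top peaks, no peaks at another gene, the replicate block and leaving out each library.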

Additional observations from a re-analysis of the deposited data

How the results depend on the processing

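The marker count of Fasted minus Fed was -5 genes and turned to 1.5 at a fold of at least 5 and to 1.5 among equal numbers of top peaks. Leaving out 1 library at a time gave -11 to 1 genes for Fasted minus Fed and -11 to 7 for Ern1-LKO minus WT, and for the share relative to all genes -1.34 to 3.44 and -2.97 to 10.2 points. Among equal numbers of top peaks these shares differed by 11.4 points for Fasted minus Fed and 0.0708 points for Ern1-LKO minus WT. With replicate 1 of both groups left out, a setting chosen after seeing the data, the Ern1-LKO minus WT share was -5.99 points. Markers with peaks in each Fasted library and no Fed library numbered 1 at a fold of at least 5 and 0 to 2 without 1 library. Those with peaks in each Fed library and no Fasted library numbered 0 at a −log10 q of 5, 0 at a fold of 5 and 1 to 9 without 1 library. The same count for each Ern1-LKO library and no WT library was 0 to 2, and for each WT library and no Ern1-LKO library 0 to 5, and that for all 8 libraries 0 to 1, each without 1 library. With both short lists left out together, also chosen after seeing the data, 10 markers were in all the other libraries. The cause of these changes was not tested, apart from the fewer peaks or libraries that each setting leaves. Deviations of same-numbered libraries correlated at 0.0210 for Fasted and Fed and 0.532 for Ern1-LKO and WT, and the labels do not say that a number pairs libraries. With the replicate number as a block the differences were -5 genes (exact permutation p = 1), -2 genes (p = 0.5), 1.05 points (p = 1) and 3.60 points (p = 1). With 2 libraries a group the smallest p of this block test is 0.5, so no call could change. The number of libraries that mark a gene fell for 16 of the 35 markers at a −log10 q of 5, for 19 at a fold of 5 and for 30 among equal numbers of top peaks, by over 1.5 times for 8, 8 and 22 of them. List length limits all counts per library, and peak lists carry no depth at sites without a peak.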
